A study of Mus musculus with 24 samples.

Results

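The genes described here are 37 chemokines, chemokine receptors and inflammatory cytokines, taken by symbol from a table of normalized expression that holds 29020 genes. A listed gene was described in full where its value reached at least 1 in at least 6 of the 24 libraries. This held for 28 genes, and the other 9 (Ccl3, Ccl4, Ccl5, Cxcl2, Cxcl5, Ccr6, Ccr7, Cxcr5 and Tnf) were counted as low. The libraries are total RNA of mesenteric arteries, small vessels that feed the gut, from 24 male mice in 4 groups of 6 (1 library per mouse). Every mouse carried a Cre recombinase that tamoxifen switches on and that the Tie2 promoter drives in the endothelium, the inner cell layer of vessels, and every mouse was given tamoxifen for 5 days (1 mg/kg per day, under the skin), starting at 10 to 12 weeks of age. The ieET-1 mice in addition overexpress human endothelin-1, a peptide that constricts vessels, in the endothelium after induction, and the ieCre mice are their controls. Long-term mice were killed 3 months after tamoxifen and short-term mice 16 days after it. The Tie2 promoter can also be active in some blood-forming cells, and each mouse is named here by its animal ID. Values are reads over a scaled library size, close in scale to CPM, and log2 differences are taken on log2(value + 1), so a low gene's change comes out smaller than it is.

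Chemokines are small secreted proteins that draw leukocytes along concentration gradients through receptors on the leukocyte surface. They are named CC, CXC or CX3C by the spacing of conserved cysteines. Atypical receptors bind chemokines without the usual G protein signal and take them up, carry them across cells or clear them. In vessels, chemokines come from endothelium, smooth muscle, adventitial fibroblasts and resident macrophages, and cytokines such as Il1b, Il6 and Tnf raise many of them, in part through the transcription factor NF-kB.

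Recovered totals ran from 9635250 to 16181605 reads per library. Summed markers of smooth muscle lay between 8753 and 20086 and those of endothelium between 1628 and 3384 over the 24 libraries, so genes that define the tissue label were present in every library. Edn1, which takes reads of the human transgene only as far as they align there, had medians of 31.9 in ieET-1 long-term, 33.3 in ieCre long-term, 46.7 in ieET-1 short-term and 36.1 in ieCre short-term arteries, and did not pass between genotypes (limma with Benjamini-Hochberg adjustment, adjusted p = 0.999 long term and 0.486 short term). In 4 libraries over 10% of reads lay on Gm42418, which overlaps ribosomal RNA sequence. The animal IDs fall into 4 blocks, and each block holds mice of 1 time, so time after tamoxifen and ID block cannot be told apart, although the long-term 94xx IDs lie between short-term ones. Markers of the adrenal cortex, a neighbouring organ, were lower in ieET-1 than ieCre short-term arteries for 5 of 5 genes. Summed pancreatic acinar markers lay between 91.0 and 56264. Their medians were 31959 in ieET-1 long-term, 10310 in ieCre long-term, 2701 in ieET-1 short-term and 7347 in ieCre short-term arteries. In some libraries they exceeded the smooth muscle sum, as in mouse 8135 (56124 against 12276). The part of such other tissue in the results was not tested.

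A pair of libraries stood apart for these genes, 1 of each genotype and both long term: mouse 9489 (ieET-1) and mouse 9487 (ieCre). Mouse 9489 also had the most genes with reads, 24399 against 18765 to 20744 in the other 23 libraries, at an ordinary total of 13165200 reads, and the part of this in its values was not tested. These 2 libraries were the 2 highest of the 24 for 16 of the 28 tested members (57.1%), against 701 of all 14544 tested genes (4.82%). Il1b is among these 16 and would not have passed the filter for testing without this pair. The pair was picked out after the values were seen, so no test was made between these mice and the rest. Counts of members passing in comparisons that include them are given with and without them. Group levels below include them except where stated. By role, the pair was highest for 5 of 8 CC chemokines, 4 of 8 CXC and CX3C chemokines, 4 of 4 chemokine receptors, 0 of 4 atypical receptors and 3 of 4 cytokines. For some genes the whole 94xx block was higher than the other long-term block, 80xx and 81xx. The lowest 94xx values of Ccl6, Cxcl16 and Il33 were 81.4, 40.9 and 80.6. The highest 80xx and 81xx values were 71.2, 37.6 and 80.0. For Il1b the blocks overlapped, with 94xx values from 0.417 and 80xx and 81xx values up to 0.922.

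Il1b stood furthest apart among the tested members. Its value was at least 1 in 7 libraries, mice 9489 and 9487 among them, and without this pair it would have been counted as low. It is a cytokine that activated macrophages and neutrophils make as an inactive precursor, and it reached 48.9 in mouse 9489 and 71.0 in mouse 9487, against 0.297 to 2.85 in the other 22 libraries. Il6, which drives the acute phase response, reached 29.4 in mouse 9489 and 43.0 in mouse 9487, against 0.529 to 4.39 in the other 22 libraries. Il33, an alarmin held in the nuclei of stromal cells, reached 293 in mouse 9489 and 430.2 in mouse 9487, against 49.9 to 163 in the other 22 libraries. All 3 cytokines were thus above every other library in both mice. Among the neutrophil-attracting ligands of Cxcr2, Cxcl5 was counted as low, with at least 1 in 4 libraries, yet it had 20.8 in mouse 9489 and 24.2 in mouse 9487, against 0 to 1.23 in the other 22 libraries. Cxcl1 had 6.67 in mouse 9489 and 11.7 in mouse 9487, against 0.211 to 6.67 in the other 22 libraries, so mouse 9489 was level with the highest of the others, mouse 8991. Cxcl2, also counted as low, had 1.74 in mouse 9489 and 2.26 in mouse 9487, against 0 to 1.06 in the other 22 libraries.

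Of the monocyte attractants, Ccl2 and Ccl7 showed the same ordering and Ccl8 did so only in mouse 9487. Ccl8 had 77.9 in mouse 9489 and 96.2 in mouse 9487, against 2.91 to 85.5 in the other 22 libraries. The related Ccl12, which is no member, had 3.56 and 12.5, against 0.542 to 7.15. Ccl2, the main ligand of Ccr2, had 17.96 in mouse 9489 and 42.0 in mouse 9487, against 1.93 to 9.47 in the other 22 libraries. Its relative Ccl7 had 20.002 in mouse 9489 and 38.5 in mouse 9487, against 0.594 to 8.92 in the other 22 libraries. Ccr2, the receptor that marks inflammatory monocytes, had 202 in mouse 9489 and 250.4 in mouse 9487, against 27.8 to 149.7 in the other 22 libraries. Ccr1, a receptor of monocytes and neutrophils, had 39.8 in mouse 9489 and 54.3 in mouse 9487, against 5.69 to 22.7 in the other 22 libraries, and Cxcr4, the receptor of Cxcl12, had 17.1 in mouse 9489 and 11.8 in mouse 9487, against 1.34 to 4.56 in the other 22 libraries. The eosinophil attractant Ccl11 had 63.4 in mouse 9489 and 68.5 in mouse 9487, against 18.1 to 36.5 in the other 22 libraries. Cxcl14, a chemokine with steady expression in many tissues, had 37.1 in mouse 9489 and 15.4 in mouse 9487, against 1.99 to 7.80 in the other 22 libraries. Cxcl14 and Cxcr4 were higher in the ieET-1 mouse of the pair, and the other genes named so far were higher in the ieCre mouse. Cx3cl1, the membrane-bound chemokine of endothelium, was the other way round and lowest of the 24 in both mice, with 12.3 in mouse 9489 and 10.97 in mouse 9487, against 13.04 to 63.1 in the other 22 libraries. Cxcl10, an interferon-induced ligand of Cxcr3, had 2.27 in mouse 9489 and 11.8 in mouse 9487, against 0.461 to 4.64 in the other 22 libraries, so it was high in mouse 9487 and ordinary in mouse 9489. Cxcl9, Cxcl13 and Ccl24 lay inside the range of the other libraries in both.

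**Figure D1:**
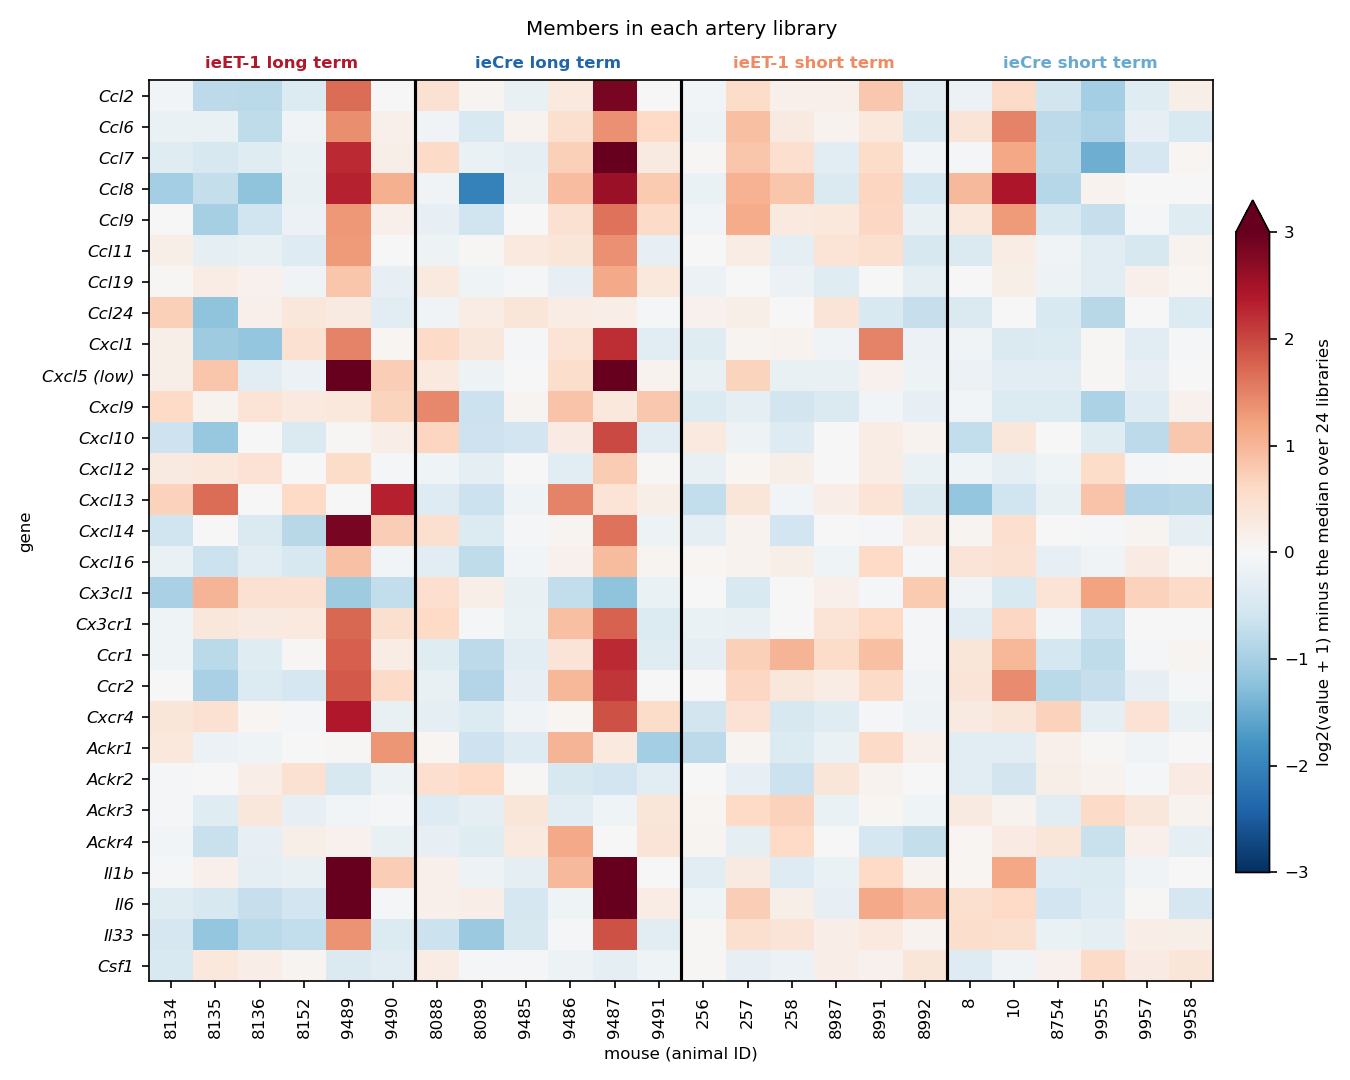
Each column is 1 artery library, grouped as ieET-1 long term, ieCre long term, ieET-1 short term and ieCre short term, and each row is 1 of the 28 tested members or Cxcl5, which was counted as low. The colour is log2(value + 1) minus that gene's median over the 24 libraries, and the columns of mice 9489 and 9487 are dark red for Il1b, Il6 and Cxcl5, where they reach 48.9 and 71.0, 29.4 and 43.0, and 20.8 and 24.2.

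Some other genes in those libraries moved with the members, but most tested genes of the same pathways did not. The pair was highest for 0 of 8 other chemokines, 1 of 7 other chemokine receptors, 0 of 12 other cytokines and 4 of 16 cytokine receptors. For tested B cell markers it was 0 of 5 and for T cell markers 0 of 6. Summed neutrophil markers were 43.7 in mouse 9489 and 29.3 in mouse 9487, against 0.587 to 14.5 in the other 22 libraries, and 1 of these 8 markers passed the low-value filter. Ly6g, which defines mouse neutrophils, had 0 reads in both mice, as in all others but mouse 9486, and S100a8, S100a9 and Retnlg made up most of the sum. S100a8, a calcium-binding protein abundant in neutrophils, had 13.5 in mouse 9489 and 11.9 in mouse 9487, against 0 to 4.83 in the other 22 libraries. Cxcr2, the neutrophil receptor of Cxcl1, Cxcl2 and Cxcl5, had 5.76 in mouse 9489 and 5.18 in mouse 9487, against 0 to 2.59 in the other 22 libraries. Summed macrophage markers were 2593 and 2938 in the same mice, against 1157 to 2067, and this pair was the highest for 7 of 13 of them. Dendritic cell markers summed to 82.2 in mouse 9489 and 78.9 in mouse 9487, against 37.2 to 60.7 in the other 22 libraries, and the pair was highest for 2 of 6. Mast cell markers summed to 56.1 and 48.2, against 18.2 to 43.7, and the pair was highest for 3 of 6. Socs3, a feedback inhibitor that Il6 signalling induces, had 40.3 in mouse 9489 and 45.6 in mouse 9487, against 7.05 to 22.1 in the other 22 libraries, and Saa3, an acute phase protein, had 29.2 in mouse 9489 and 220.2 in mouse 9487, against 0.211 to 11.7 in the other 22 libraries. Nfkbia, the inhibitor that NF-kB induces against itself, had 61.7 in mouse 9489 and 56.1 in mouse 9487, against 44.1 to 121 in the other 22 libraries, inside the range of the others, and the pair was highest for 3 of 20 NF-kB target genes. The pair was highest for 0 of 8 endothelial, 0 of 8 smooth muscle, 0 of 8 fibroblast and 0 of 8 adipocyte markers. In such bulk samples, more cells of a type and more RNA per cell cannot be told apart, and the part of leukocyte number in these values was not tested.

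Promoter sequence is shown for 4 cytokine and chemokine genes that differ in these libraries: Il6, Cxcl1 and Il1b, which were high there, and Csf1, which was not. Each window is the 250 bases before the RefSeq start in GRCm38.p6, written 5′ to 3′ on the gene's own strand, and capitals mark a match on either strand to the kappa B motif of NF-kB, read as GGG, any 2 bases, then TTTCC. The Il6 window is chr5:30012864-30013113 (plus strand, match 44 to 35 bases before the start). The Cxcl1 window is chr5:90890995-90891244 (plus strand, matches 89 to 80 and 71 to 62 bases before it). The Il1b window is chr2:129371140-129371389 (minus strand, no match) and the Csf1 window is chr3:107760470-107760719 (minus strand, match 154 to 145 bases before it).
Il6: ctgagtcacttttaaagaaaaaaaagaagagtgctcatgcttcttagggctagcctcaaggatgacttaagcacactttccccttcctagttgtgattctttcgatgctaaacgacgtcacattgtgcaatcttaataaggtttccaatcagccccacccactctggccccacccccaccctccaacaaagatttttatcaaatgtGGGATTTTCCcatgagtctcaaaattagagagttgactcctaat
Cxcl1: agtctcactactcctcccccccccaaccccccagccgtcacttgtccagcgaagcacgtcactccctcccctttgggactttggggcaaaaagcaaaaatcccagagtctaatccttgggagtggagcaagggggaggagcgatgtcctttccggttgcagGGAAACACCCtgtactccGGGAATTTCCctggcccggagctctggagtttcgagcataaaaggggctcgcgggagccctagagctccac
Il1b: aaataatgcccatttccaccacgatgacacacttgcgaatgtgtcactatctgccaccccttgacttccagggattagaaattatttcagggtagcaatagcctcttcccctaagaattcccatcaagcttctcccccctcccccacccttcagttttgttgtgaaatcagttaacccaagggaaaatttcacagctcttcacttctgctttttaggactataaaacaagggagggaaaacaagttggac
Csf1: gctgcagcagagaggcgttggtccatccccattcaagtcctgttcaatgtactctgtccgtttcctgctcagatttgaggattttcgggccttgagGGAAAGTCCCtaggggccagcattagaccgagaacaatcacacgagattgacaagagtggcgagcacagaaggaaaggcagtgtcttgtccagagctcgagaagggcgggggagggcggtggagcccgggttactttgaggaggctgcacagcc
A window was found for 27 of the 37 listed genes, and those of 5 (Ccl9, Cxcl1, Cxcl2, Il6 and Csf1) hold the motif, against those of 447 of all 27025 genes with a window (1.65%). Of the genes shown with a match, Il6 was far above the other libraries in both mice 9489 and 9487, and Cxcl1 only in mouse 9487. Csf1 has a match but had 44.1 in mouse 9489 and 49.4 in mouse 9487, against 43.1 to 89.4 in the other 22 libraries, and Il1b lay far above the others there with no match in its window, which says only that these letters are not in these 250 bases. The interferon-stimulated response element, read as GAAA, any 2 bases, then GAAA and searched the same way, was in the windows of Ccl19, Cxcl10 and Cxcl14 and in those of 936 of all 27025 genes (3.46%).

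Levels were compared between genes per kb of exon. The median over the 24 libraries, per kb, was highest for Ccl6 (42.5), followed by Il33 (39.4), Ccl8 (29.4), Ccl11 (23.7) and Ccl9 (17.3). It was lowest for Il1b (0.379), Cxcl9 (0.503) and Il6 (0.604). The steadiest members were Csf1, whose highest library was 2.08 times its lowest, Ackr3 (2.12 times) and Cxcl12 (2.14 times). The most variable was Il1b, at 239 times.

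Levels by group follow, first for the CC chemokines. Ccl2, Ccl7, Ccl8 and Ccl11 are neighbours on chromosome 11 (GRCm38, chr11:82035571-82116799). Ccl2 ran at 2.43 to 17.96 (median 4.08) in ieET-1 long-term, 4.09 to 42.0 (median 5.80) in ieCre long-term, 3.68 to 9.47 (median 5.62) in ieET-1 short-term and 1.93 to 7.90 (median 3.96) in ieCre short-term arteries. Ccl7 ran at 2.15 to 20.002 (median 2.64) in ieET-1 long-term, 2.59 to 38.5 (median 4.99) in ieCre long-term, 2.52 to 6.84 (median 4.44) in ieET-1 short-term and 0.594 to 8.92 (median 2.70) in ieCre short-term arteries. In both genes the ranges of all 4 groups overlapped, and mouse 9489 or 9487 set the highest long-term value. Ccl8, a further monocyte attractant, ran at 5.92 to 77.9 (median 10.7) in ieET-1 long-term, 2.91 to 96.2 (median 20.3) in ieCre long-term, 10.1 to 32.1 (median 18.5) in ieET-1 short-term and 7.89 to 85.5 (median 15.8) in ieCre short-term arteries. Ccl11 ran at 19.4 to 63.4 (median 23.7) in ieET-1 long-term, 21.4 to 68.5 (median 29.1) in ieCre long-term, 18.3 to 36.5 (median 28.0) in ieET-1 short-term and 18.1 to 30.1 (median 22.1) in ieCre short-term arteries. Ccl6 and Ccl9 are rodent CC chemokines that act on Ccr1 and are abundant in macrophages. Ccl6 averaged 88.9 ± 56.6 in ieET-1 long-term, 105 ± 50.8 in ieCre long-term, 89.3 ± 29.8 in ieET-1 short-term and 86.2 ± 66.4 in ieCre short-term arteries (mean ± SD, n = 6 in each group here and below). Ccl9 averaged 58.6 ± 38.1 in ieET-1 long-term, 75.2 ± 47.9 in ieCre long-term, 70.2 ± 25.3 in ieET-1 short-term and 59.7 ± 36.5 in ieCre short-term arteries. Their SDs were a large share of their means in every group. Ccl24, an eosinophil attractant like Ccl11, averaged 9.82 ± 4.22 in ieET-1 long-term, 10.1 ± 1.34 in ieCre long-term, 8.87 ± 2.61 in ieET-1 short-term and 6.97 ± 1.68 in ieCre short-term arteries. Ccl19, which guides dendritic cells and naive T cells through Ccr7, averaged 1.93 ± 0.849 in ieET-1 long-term, 2.18 ± 1.30 in ieCre long-term, 1.31 ± 0.232 in ieET-1 short-term and 1.57 ± 0.334 in ieCre short-term arteries, and its reads may be shared with near-identical copies on chromosome 4. The low members Ccl3, Ccl4 and Ccl5 peaked at 0.671, 1.04 and 0.818.

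Among the CXC and CX3C chemokines, Cxcl12, the ligand that retains Cxcr4-bearing leukocytes and progenitors, was among the most even members. It averaged 46.0 ± 7.55 in ieET-1 long-term, 39.8 ± 12.9 in ieCre long-term, 38.6 ± 4.99 in ieET-1 short-term and 38.6 ± 8.77 in ieCre short-term arteries. Cxcl16, a membrane-anchored chemokine that binds Cxcr6, averaged 41.8 ± 19.6 in ieET-1 long-term, 46.2 ± 20.1 in ieCre long-term, 48.0 ± 9.43 in ieET-1 short-term and 48.1 ± 9.31 in ieCre short-term arteries. Cx3cl1 averaged 28.2 ± 17.3 in ieET-1 long-term, 23.4 ± 9.82 in ieCre long-term, 29.1 ± 9.18 in ieET-1 short-term and 37.7 ± 15.5 in ieCre short-term arteries. These 3 overlapped between the genotypes at both times. The Cxcr3 ligand Cxcl10 averaged 1.68 ± 0.845 in ieET-1 long-term, 3.74 ± 4.10 in ieCre long-term, 2.28 ± 0.543 in ieET-1 short-term and 2.20 ± 1.46 in ieCre short-term arteries. Cxcl1 ran at 0.211 to 6.67 (median 1.97) in ieET-1 long-term, 1.17 to 11.7 (median 2.52) in ieCre long-term, 1.12 to 6.67 (median 1.70) in ieET-1 short-term and 1.02 to 1.78 (median 1.37) in ieCre short-term arteries. In both the long-term ieCre values were widened by mouse 9487. Cxcl13, which draws B cells through Cxcr5, ran at 4.09 to 25.03 (median 7.10) in ieET-1 long-term, 2.304 to 13.6 (median 4.28) in ieCre long-term, 2.08 to 5.83 (median 4.38) in ieET-1 short-term and 1.30 to 8.32 (median 2.15) in ieCre short-term arteries, with its highest values in mice 9490, 8135 and 9486. Cxcl14 ran at 1.99 to 37.1 (median 3.63) in ieET-1 long-term, 2.98 to 15.4 (median 4.34) in ieCre long-term, 2.57 to 5.24 (median 4.21) in ieET-1 short-term and 3.36 to 6.51 (median 4.45) in ieCre short-term arteries, and its 4 group ranges overlapped.

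The 4 tested chemokine receptors are receptors of myeloid cells and lymphocytes. Ccr2 (GRCm38, chr9:124101950-124113557) ran at 27.8 to 202 (median 49.1) in ieET-1 long-term, 29.9 to 250.4 (median 51.3) in ieCre long-term, 51.8 to 85.6 (median 68.4) in ieET-1 short-term and 31.5 to 149.7 (median 50.1) in ieCre short-term arteries. Ccr1 ran at 5.69 to 39.8 (median 10.5) in ieET-1 long-term, 5.90 to 54.3 (median 8.36) in ieCre long-term, 8.70 to 22.7 (median 17.3) in ieET-1 short-term and 5.94 to 22.7 (median 10.9) in ieCre short-term arteries. Cx3cr1, the receptor of Cx3cl1 on monocytes and resident macrophages, ran at 4.44 to 18.9 (median 6.45) in ieET-1 long-term, 3.52 to 19.4 (median 6.38) in ieCre long-term, 4.12 to 8.11 (median 4.82) in ieET-1 short-term and 2.82 to 8.19 (median 4.80) in ieCre short-term arteries. Cxcr4 ran at 1.93 to 17.1 (median 2.95) in ieET-1 long-term, 1.56 to 11.8 (median 2.35) in ieCre long-term, 1.34 to 3.62 (median 1.86) in ieET-1 short-term and 1.78 to 4.56 (median 3.23) in ieCre short-term arteries. In all 4 the highest value of each long-term group came from mouse 9489 or 9487, and all 4 group ranges overlapped. Ccr6, Ccr7 and Cxcr5, receptors of lymphocytes and dendritic cells, were low, and the highest of their values was 2.499, for Ccr7 in mouse 9487.

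All 4 atypical receptors were tested, and the group ranges of each overlapped. Ackr3, which binds and removes Cxcl12, averaged 53.4 ± 9.48 in ieET-1 long-term, 54.7 ± 13.7 in ieCre long-term, 65.2 ± 17.9 in ieET-1 short-term and 64.5 ± 13.3 in ieCre short-term arteries. Ackr4, which scavenges Ccl19 and its relatives, averaged 17.8 ± 3.73 in ieET-1 long-term, 24.1 ± 10.7 in ieCre long-term, 18.5 ± 6.74 in ieET-1 short-term and 19.8 ± 5.02 in ieCre short-term arteries. Ackr2, a scavenger of inflammatory CC chemokines known from lymphatic endothelium, averaged 10.6 ± 2.55 in ieET-1 long-term, 10.7 ± 4.21 in ieCre long-term, 10.1 ± 2.49 in ieET-1 short-term and 10.1 ± 2.24 in ieCre short-term arteries. Ackr1, the Duffy antigen receptor of venular endothelium and red cells, averaged 4.59 ± 2.76 in ieET-1 long-term, 3.603 ± 2.47 in ieCre long-term, 3.33 ± 1.41 in ieET-1 short-term and 3.19 ± 0.575 in ieCre short-term arteries. Ackr1 varied most of the 4, with its highest value, 10.1, in mouse 9490.

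Among the cytokines, Il1b (GRCm38, chr2:129364570-129371139) ran at 0.423 to 48.9 (median 0.784) in ieET-1 long-term, 0.417 to 71.0 (median 0.810) in ieCre long-term, 0.321 to 1.59 (median 0.677) in ieET-1 short-term and 0.297 to 2.85 (median 0.668) in ieCre short-term arteries. Il6 (chr5:30013114-30019981) ran at 0.529 to 29.4 (median 0.850) in ieET-1 long-term, 0.751 to 43.0 (median 1.79) in ieCre long-term, 1.08 to 4.39 (median 2.45) in ieET-1 short-term and 0.651 to 2.71 (median 1.21) in ieCre short-term arteries. Il33 (chr19:29925114-29960718) ran at 49.9 to 293 (median 73.8) in ieET-1 long-term, 52.4 to 430.2 (median 85.3) in ieCre long-term, 117 to 158 (median 134) in ieET-1 short-term and 94.8 to 163 (median 129) in ieCre short-term arteries. Long-term medians of Il33 were below short-term ones in both genotypes, while its highest values were long-term. Csf1, the growth factor that macrophages need through Csf1r, averaged 56.9 ± 13.8 in ieET-1 long-term, 56.9 ± 6.73 in ieCre long-term, 62.4 ± 10.02 in ieET-1 short-term and 67.5 ± 15.6 in ieCre short-term arteries. Tnf was low, with a highest value of 2.01, in mouse 9487.

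The first comparison asks whether endothelial endothelin-1 changed these genes. At neither time did any of the 28 members pass, and the values of ieET-1 and ieCre mice overlapped for all 28 at both. Long term, 0 of 28 members passed limma with Benjamini-Hochberg adjustment over all tested genes, where 0.00688% of all genes were called. The number of members with an unadjusted p under 0.05 was also 0 (2.99% of all genes), and edgeR and DESeq2 on recovered reads called 0. The member nearest to the threshold was Cxcl13, with a log2 difference of 0.73 ± 0.39 (SE) and an adjusted p of 0.999 by limma. Short term, 0 of 28 passed, where 0.0825% of all genes were called, and again 0 had an unadjusted p under 0.05 (9.91% of all genes) and edgeR and DESeq2 called 0. The nearest was Ccl24, with a log2 difference of 0.29 ± 0.24 and an adjusted p of 0.635 by limma.

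The intervals show what size of difference could be seen. The 95% interval of the log2 difference lay between -1 and 1 for 16 of 28 members long term and for 14 short term. It was narrowest for Csf1, at -0.34 to 0.29 long term and -0.41 to 0.23 short term, and widest for Il1b, at -1.80 to 1.51 and -1.70 to 1.60. Long term, 8 members had a positive and 20 a negative difference, with a median of -0.14, against -0.01 over all tested genes. All 8 CC chemokines were on the negative side there, from -0.65 for Ccl2 to -0.08 for Ccl19, none past the threshold. The long-term ID blocks were uneven, with 4 ieET-1 and 2 ieCre mice in 80xx and 81xx and 2 and 4 in 94xx. In both blocks mean Ccl2, Ccl7 and Ccl19 were lower in ieET-1 mice, while Ccl8 and Ccl9 were higher. Ccl9, for example, averaged 40.1 against 39.7 in 80xx and 81xx and 95.6 against 92.9 in 94xx. Ccl6, Ccl11 and Ccl24 changed direction between the blocks. Short term, 17 members had a positive and 11 a negative difference, with a median of 0.06, against -0.01 over all tested genes. Groups that did not overlap made up 0.103% of all tested genes long term and 0.763% short term.

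Without mice 9489 and 9487, a setting chosen after the data were seen, long-term members again passed in 0 of 28 cases (0.00688% of all genes), and 3 had an unadjusted p under 0.05 (4.37% of all genes). Cxcl12 then had a log2 difference of 0.33 (limma, adjusted p = 0.998). Cxcl13 had 0.96 (limma, adjusted p = 0.998) and Ccl2 had -0.54 (limma, adjusted p = 0.998). Within the animal ID blocks of the long-term mice, Cxcl12 averaged 45.8 in 4 ieET-1 and 32.9 in 2 ieCre mice with IDs in the 80xx and 81xx range, and 46.4 in 2 ieET-1 and 43.2 in 4 ieCre mice in the 94xx range, with mice 9489 and 9487 included.

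**Figure D2:**
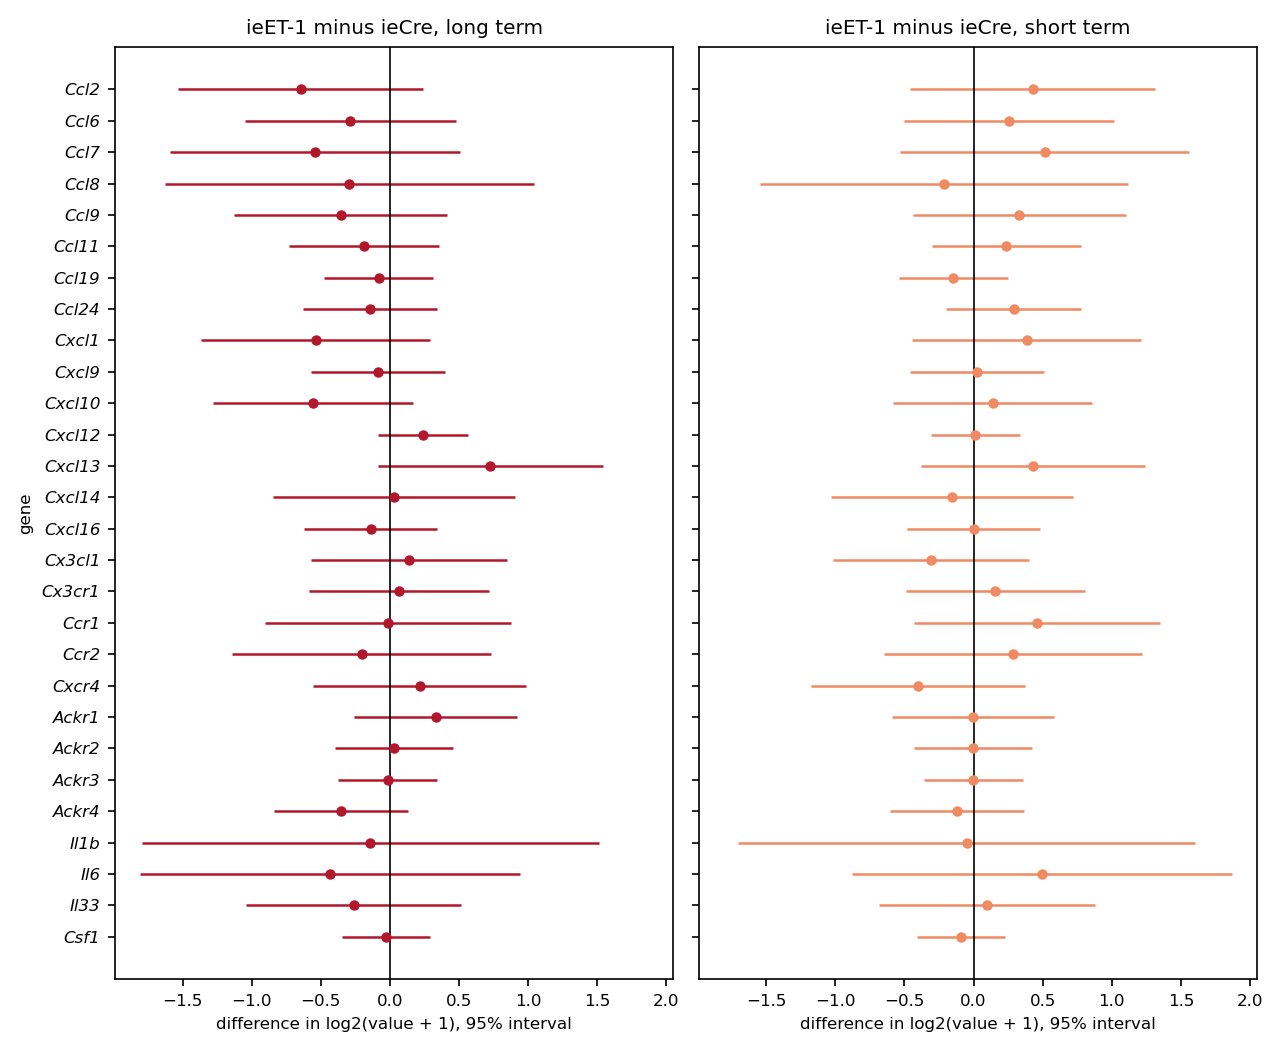
Points are the differences in log2(value + 1), ieET-1 minus ieCre, of the 28 tested members, with 95% intervals from limma as bars, long term in the left panel and short term in the right. Every interval crosses 0, and Csf1 has the narrowest and Il1b the widest.

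The second comparison sets long-term against short-term arteries within a genotype. Long-term mice were also older when killed, so age, time after tamoxifen and ID block cannot be told apart. Cxcl9 came closest to the threshold in both genotypes, and Il33 was called only with mice 9489 and 9487 both left out. In ieET-1 arteries, 0 of 28 members passed in limma, where 8.66% of all genes were called, 2 had an unadjusted p under 0.05 (25.6% of all genes), and edgeR called 1 and DESeq2 2. In ieCre arteries, 0 of 28 passed, where 3.3% of all genes were called, 2 had an unadjusted p under 0.05 (17.9% of all genes), and edgeR and DESeq2 called 1 each. The median log2 difference of the members was -0.10 in ieET-1 and 0.27 in ieCre arteries, against 0.01 over all tested genes in each.

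Cxcl9 (GRCm38, chr5:92321347-92328079), a T cell attractant that interferon gamma induces, ranged over 1.69 to 2.97 with a median of 2.22 in ieET-1 long-term arteries, against 0.723 to 1.36 with a median of 0.982 in ieET-1 short-term arteries. The groups did not overlap, which held for 1 of 28 members and for 3.52% of all tested genes. In ieCre arteries it ranged over 0.610 to 5.80 with a median of 2.77 long term, against 0.297 to 1.75 with a median of 0.911 short term, and these groups overlapped, with mice 8089 (0.610) and 9485 (1.67) below the highest short-term value. The log2 difference was 0.72 ± 0.23 in ieET-1 (limma, adjusted p = 0.0547) and 0.83 ± 0.23 in ieCre arteries (limma, adjusted p = 0.0503), both just short of the threshold. On recovered reads it passed in both: edgeR gave log2 differences of 1.21 (adjusted p = 0.0424) and 1.41 (adjusted p = 0.0333), and DESeq2 gave 1.2003 (adjusted p = 0.0221) and 1.42 (adjusted p = 0.00848), each time in ieET-1 and then in ieCre arteries. Without mouse 8089 the ieCre difference was 1.05 (limma, adjusted p = 0.0040). This was the largest with each library left out in turn: the range was 0.64 to 1.05, and 3 of 12 such settings passed. T cells carry Cxcr3, the receptor of Cxcl9, and summed T cell markers lay at 8.57 to 24.01 with a median of 12.1 in ieET-1 long-term, 11.4 to 18.8 with a median of 14.3 in ieCre long-term, 4.53 to 12.3 with a median of 8.84 in ieET-1 short-term and 5.63 to 12.2 with a median of 8.04 in ieCre short-term arteries. Of 6 tested T cell markers, 1 passed as higher in each genotype. Their part in the Cxcl9 values was not tested.

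Il33 medians were lower long term, but no call was made with all libraries. With all libraries the log2 difference was -0.63 ± 0.38 in ieET-1 (limma, adjusted p = 0.306) and -0.27 ± 0.38 in ieCre arteries (limma, adjusted p = 0.754), where edgeR gave 0.11 and DESeq2 0.10, in the other direction. The pair of long-term libraries that stood apart was then left out, a setting chosen after the data were seen. These mice were picked for high values of these genes, Il33 and Il6 included. Tests without them therefore cannot decide whether Il33 or Il6 changed with time. Without those mice, ieET-1 long-term Il33 values were 49.9 to 85.0 in 5 libraries, against 117 to 158 in 6 short-term libraries, which do not overlap. In ieCre arteries they were 52.4 to 109.9 in 5 long-term libraries, against 94.8 to 163 in 6 short-term libraries. Il33 then fell by 0.97 on the log2 scale in ieET-1 (limma, adjusted p = 0.00106) and by 0.67 in ieCre arteries (limma, adjusted p = 0.0323). In the same setting 11.6% and 2.81% of all genes were called. Both Il33 calls needed the pair left out together. The mouse of the other genotype did not enter the difference itself, only the spread, which was estimated over all 4 groups. The SE of Il33 was 0.38 with the pair and 0.17 without it. With each library left out in turn, no member passed in ieET-1 arteries, and Il33 did not pass in ieCre arteries. The Il33 difference then ran from -0.97 to -0.47 in ieET-1 and from -0.67 to -0.07 in ieCre arteries. Fibroblasts are a source of Il33 in mouse tissues, and their summed markers lay at 6416 to 11333 with a median of 7914 in ieET-1 long-term, 6569 to 12497 with a median of 9014 in ieCre long-term, 11239.8 to 14173 with a median of 11842 in ieET-1 short-term and 11161 to 14536 with a median of 11818 in ieCre short-term arteries. Of 8 fibroblast markers, 3 passed as lower in ieET-1 and 2 in ieCre arteries, and their part in the Il33 values was not tested. Il6 was also called in ieET-1 arteries, again only with the pair left out together. It then fell by 0.86 (limma, adjusted p = 0.0319), with 0.529 to 1.41 in 5 long-term libraries, against 1.08 to 4.39 in 6 short-term libraries. With all libraries its log2 difference was -0.18 ± 0.66 (limma, adjusted p = 0.894), and its direction turned in other settings: it was 1.15 by edgeR, 1.11 by DESeq2, 0.24 once the Gm42418-rich libraries were left out and 0.0056 without mouse 8136. In ieCre arteries without the pair Il6 differed by 0.05 (limma, adjusted p = 0.954), and the difference between genotypes in this change had an adjusted p of 0.694 by limma.

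The remaining members under an unadjusted p of 0.05 did not pass. Cxcl13 differed by 0.93 ± 0.39 between long-term and short-term ieET-1 arteries (limma, adjusted p = 0.138). DESeq2 gave 1.30 (adjusted p = 0.0474). The mesothelium markers, which belong to the lining of the abdominal cavity, were highest in mouse 9486 (summed 318) and mouse 8135 (182), and those mice were also among the 3 highest for Cxcl13. Mouse 9490, the highest for Cxcl13, was not among the 3 highest for those markers. Summed pancreatic acinar markers were highest of all libraries in mice 9490 (56264) and 8135 (56124), while mouse 9486 had 4733. The part of either tissue in the Cxcl13 values was not tested. Ccl24 differed by 0.50 ± 0.24 between long-term and short-term ieCre arteries (limma, adjusted p = 0.265).

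**Figure D3:**
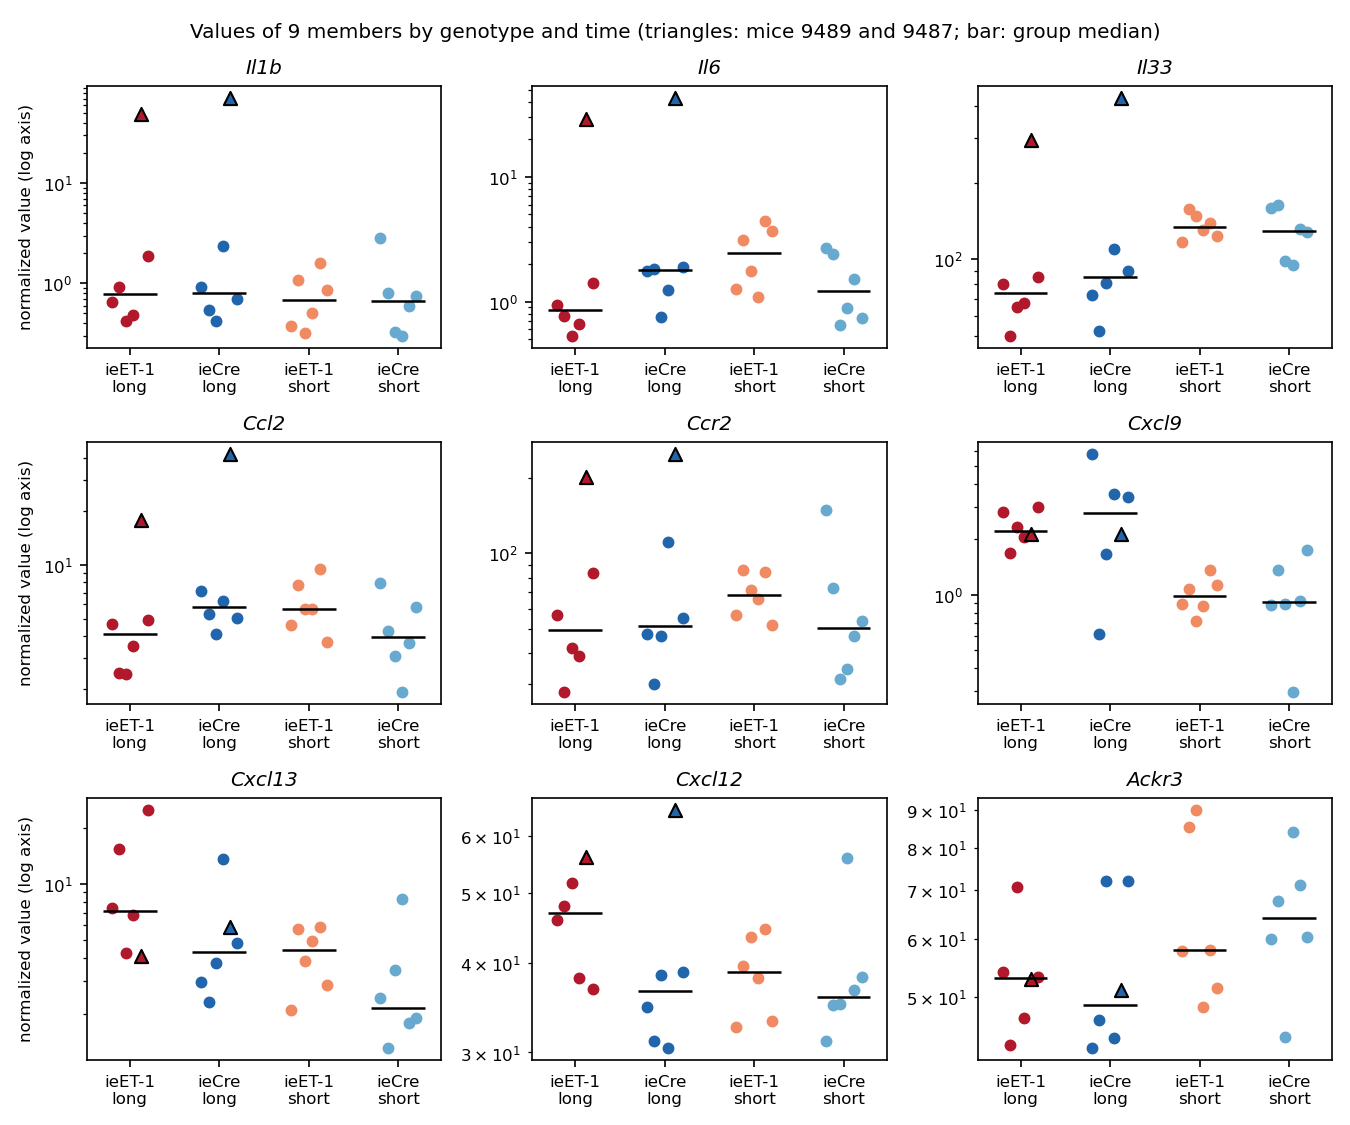
Each point is 1 library's normalized value (log axis) of 9 members, by genotype and time, with bars at the group medians and triangles for mice 9489 and 9487. Cxcl9 shows no overlap between ieET-1 long-term (1.69 to 2.97) and short-term (0.723 to 1.36) arteries, and the triangles of Il1b, Il6 and Il33 lie above every other point.

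The genotype by time interaction asks whether the genotype difference was the same at both times. It was not detectable for any member: 0 of 28 passed in limma, where 0% of all genes were called, 0 had an unadjusted p under 0.05 (5.03% of all genes), and edgeR and DESeq2 called 0 members. The smallest p was that of Ccl2, with a log2 difference of differences of -1.07 ± 0.61 (limma, adjusted p = 0.752). The 95% interval lay between -1 and 1 for 8 of the 28 members. Without mice 9489 and 9487, 0 passed and 3 had an unadjusted p under 0.05 (6.04% of all genes) in limma. These were Ccl2 (-0.97), Il6 (-0.91) and Ccl7 (-0.98), each with an adjusted p of 0.694 by limma. The pair was picked for high values of these genes, so this setting cannot decide whether they differed.

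Many members followed the macrophage markers from library to library, in part through mice 9489 and 9487. Each member was related to the mean log2 level of 13 macrophage markers and, separately, of the tested B cell markers, as deviations from the group means over 24 libraries, giving 56 relations. By Pearson's r, 22 had a Benjamini-Hochberg adjusted permutation p under 0.05, and 17 by Spearman's rho. For macrophage markers 18 members were positive and 3 negative by Pearson's r, and 14 were positive and 3 negative by Spearman's rho. The weakest r that passed was 0.54 in size. An r of at least 0.54 was found for 64.3% of the 28 members and for 19.2% of 14531 tested genes that are no macrophage marker, and one of at most -0.54 for 10.7% and 18.1%. Without mice 9489 and 9487 an r of at least 0.54 was found for 35.7% of the members and 15.4% of those genes. For B cell markers 0 were positive and 1, Ackr3, was negative by Pearson's r (r = -0.56, rho = -0.45, adjusted permutation p = 0.0133 and 0.0749), with r = -0.46 without the 2 farthest libraries. With the animal ID block also removed, 26 of the 56 passed by Pearson's r, and without mice 9489 and 9487 it was 17.

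Ccr2 followed the macrophage markers most closely (r = 0.96, rho = 0.94, permutation p = 1e-05 for each, the smallest that 100000 resamples can give, adjusted 5.09e-05 and 7e-05). Without the 2 libraries farthest on the marker axis, mice 9487 and 9489, its r was 0.93. The same r without those libraries was 0.91 for Ccl9, 0.90 for Ccl8, 0.88 for Ccl6, 0.87 for Ccr1 and 0.85 for Il33, against 0.94, 0.93, 0.91, 0.93 and 0.90 with them. Other relations rested on that pair: r was 0.26 against 0.66 for Ccl19, 0.34 against 0.65 for Cxcl1, 0.36 against 0.71 for Cxcr4 and 0.26 against 0.54 for Cxcl10, without and with them. Those of Il6 (0.45 against 0.76), Cxcl14 (0.43 against 0.70), Cx3cr1 (0.51 against 0.75) and Ccl11 (0.53 against 0.77) also weakened. Cx3cl1 (r = -0.81, -0.77 without the pair), Ackr2 (r = -0.74, -0.67) and Csf1 (r = -0.64, -0.63) ran against the macrophage markers. The relations of Ccl24, Cxcl9, Cxcl12, Cxcl13, Ackr1, Ackr3 and Ackr4 did not pass. The macrophage list holds no member but holds Csf1r. Summed macrophage markers lay at 1197 to 2593 with a median of 1576 in ieET-1 long-term, 1204 to 2938 with a median of 1653 in ieCre long-term, 1181 to 1679.5 with a median of 1550.4 in ieET-1 short-term and 1157 to 2067 with a median of 1291 in ieCre short-term arteries.

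**Figure D4:**
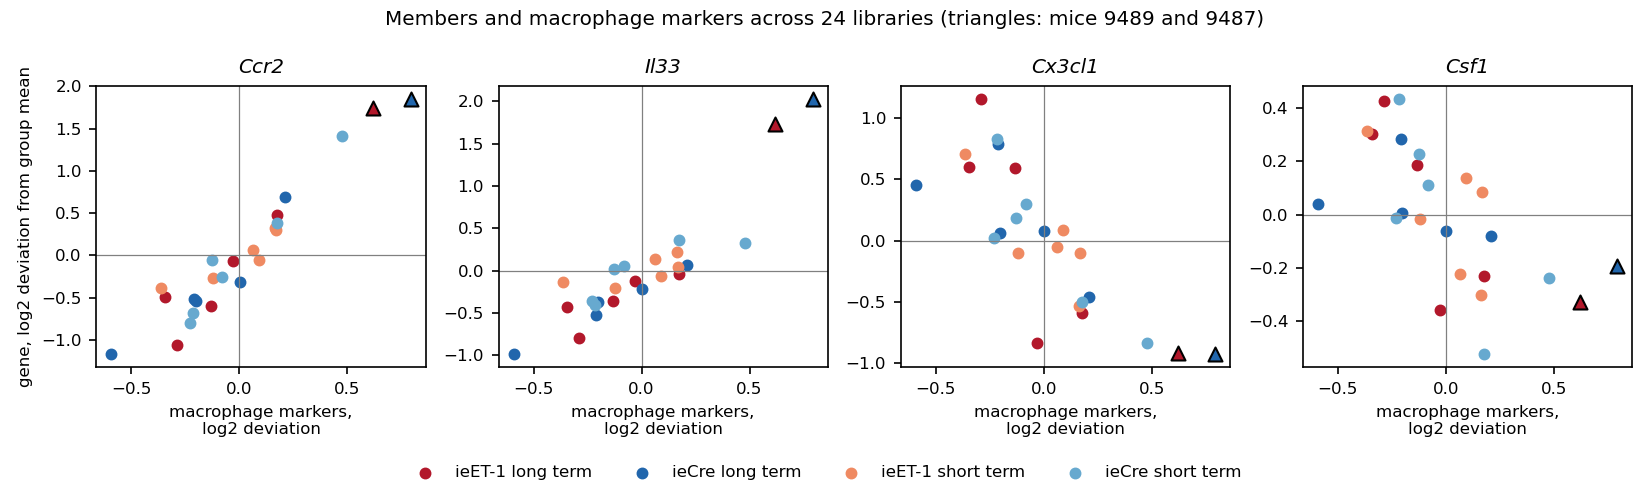
Each point is 1 library, with the mean log2 level of the macrophage markers on the horizontal axis and 1 member on the vertical axis, both as deviations from the group mean, and triangles for mice 9489 and 9487. Ccr2 and Il33 rise with the markers (r = 0.96 and 0.90), and Cx3cl1 and Csf1 fall (r = -0.81 and -0.64).

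Genes of the same pathways that are not members were read from lists chosen with earlier results of these data known. Between genotypes, limma called 0 of 8 tested other chemokines, 0 of 7 other chemokine receptors, 0 of 12 other cytokines, 0 of 16 cytokine receptors and 0 of 20 NF-kB targets at either time and in the interaction, and edgeR and DESeq2 did the same. An unadjusted p under 0.05 was found for 1 cytokine, 1 cytokine receptor and 1 NF-kB target long term and for 2 NF-kB targets short term, and for 1 cytokine and 1 cytokine receptor in the interaction. Long against short term, 1 other chemokine rose in each genotype: Mif, a cytokine with chemokine-like action, with log2 differences of 0.54 in ieET-1 and 0.54 in ieCre arteries (limma, adjusted p = 0.0194 and 0.0321). The 1 receptor that fell in each was Cmklr1, the receptor of chemerin, which fell by 0.71 in ieET-1 and by 0.77 in ieCre arteries (limma, adjusted p = 0.0235 and 0.0276). Of the cytokines, Tnfsf13b, a B cell survival factor, rose by 0.57 and Il17d by 0.48 in ieET-1 arteries (limma, adjusted p = 0.0335 and 0.0393), and Ltb, which shapes lymphoid tissue, rose by 0.98 in ieCre arteries (limma, adjusted p = 0.00383). Of the cytokine receptors, Csf1r, the receptor of Csf1 and also on the macrophage list, rose by 0.51 in ieET-1 (limma, adjusted p = 0.00400) and Il18r1 by 1.05 in ieCre arteries (limma, adjusted p = 0.0107). Of the NF-kB targets 0 of 20 passed in either genotype, 2 in each had an unadjusted p under 0.05, and edgeR and DESeq2 called 0. In ieCre arteries the call of Mif was lost in 8 and that of Cmklr1 in 6 of the 12 settings that leave out 1 library. In ieET-1 arteries the count of 2 cytokines changed in 9 of 12 such settings, to 0 without mice 8991 or 8992, and it was 1 by edgeR and DESeq2 and 0 with no filter, with quantile normalization, with the compared groups alone and with library weights.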

How the data were processed

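Total RNA from mesenteric arteries of 24 mice was sequenced, 1 library per mouse and 6 per group. The deposited values are a signal that the authors scaled from reads by library, near CPM in size, as read from the values: 100% of 482036 positive values were whole reads within 0.001. The submitters' processing notes list edgeR 3.6.8, R 3.2.3, STAR 2.3.1, bcl2fastq 1.8.4 and FastQC and say nothing of their use. For the genome build, annotation, counter and strand setting, the sources used here give nothing, so reads of overlapping or antisense genes cannot be told apart. A row that names no gene was left out (at most 0.0993% of a library). Symbols came from GENCODE M21 on GRCm38 (28403 of 29020 IDs, 97.9%) and promoter windows from RefSeq GRCm38.p6.

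A gene was tested where 6 or more libraries reached a value of 1 (14544 genes). Values were taken as log2(value + 1) and fitted over all 4 groups with limma 3.58.1 in R 4.3.3, with 5 contrasts and Benjamini-Hochberg adjustment over all tested genes at 0.05. Correlations used 100000 permutations of deviations from group means (Python 3.11.15, SciPy 1.17.1, pandas 2.3.3). The scripts were tested on simulated data. Alternatives were another pseudocount, 2 filters, edgeR 4.0.16 and DESeq2 1.42.0 on recovered reads, 2 normalizations, the compared groups alone, animal ID range as a term, library weights, libraries left out for Gm42418, and each library left out in turn. Of all 276 library pairs the closest differed by 13.04 times the counting variance, so none is a repeat. A count of 3 reads corresponds to a value of 0.177 to 0.461, which covers counting error only. Every tested member was to be described by group, with those that passed, or up to 6 with an unadjusted p under 0.05, named in each comparison, and of the other lists the few with the smallest p. The members and lists were chosen with earlier results of these data known.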

Additional observations from a re-analysis of the deposited data

Results flagged for a closer look

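In groups of 6, a highest or lowest library was singled out where its gap to the next took up more than 0.625 of the whole range of its group. Chance does this in about 1 in 20 groups. Of 112 groups examined, 21 were singled out, 17 of them by mice 9489 and 9487.

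In mouse 9489, an ieET-1 long-term mouse, the values singled out were 17.96 for Ccl2, 20.002 for Ccl7, 63.4 for Ccl11, 80.5 for Cxcl16, 18.9 for Cx3cr1, 17.1 for Cxcr4, 48.9 for Il1b, 29.4 for Il6 and 293 for Il33. The other 5 mice of its group had Il6 values of 0.529 to 1.41 and Il33 values of 49.9 to 85.0. In mouse 9487, an ieCre long-term mouse, they were 42.0 for Ccl2, 38.5 for Ccl7, 68.5 for Ccl11, 11.7 for Cxcl1, 65.2 for Cxcl12, 71.0 for Il1b, 43.0 for Il6 and 430.2 for Il33. The other 5 mice of its group had Il6 values of 0.751 to 1.88 and Il33 values of 52.4 to 109.9.

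The other 4 came from 4 mice. Cxcl1 was 6.67 in mouse 8991 (ieET-1 short term), against 1.12 to 1.93 in the rest of its group, and this mouse had a neutrophil marker sum of 12.96. Ackr1 was 10.1 in mouse 9490 (ieET-1 long term), against 2.92 to 4.52. Cxcl12 was 55.9 in mouse 9955 (ieCre short term), against 31.1 to 38.2, and this library had 26.6% of its reads on Gm42418. Il1b was 2.85 in mouse 10 (ieCre short term), against 0.297 to 0.806.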

How the results depend on the processing

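No member passed between genotypes or in the interaction under any alternative that was run. In ieET-1 arteries, long against short term, the number of members passing was 1 by edgeR, with the compared groups alone and with library weights, and 2 by DESeq2 and without mice 9487 and 9489, a setting chosen after the data were seen. In ieCre arteries it was 1 by edgeR, by DESeq2, with library weights, with a filter of at least 12 libraries and without those mice. Leaving out each library gave 0 to 0 in ieET-1 and 0 to 1 in ieCre arteries (1 without mice 8, 9958 or 8089, which was Cxcl9). The log2 difference of Il33 in ieCre arteries was 0.11 by edgeR and 0.10 by DESeq2. That of Il6 in ieET-1 arteries was 1.15 by edgeR, 1.11 by DESeq2 and 0.24 once the Gm42418-rich libraries were left out. With each library left out in turn it ran from -0.86 (mouse 9489) to 0.0056 (mouse 8136). The cause was not tested.

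Over all genes the number passing ran from 1 to 55 between genotypes short term (12 as reported), 1 to 2 long term (1), 603 to 1898 in ieET-1 (1260) and 266 to 2220 in ieCre arteries with time (480), and 0 to 6 in the interaction (0). No paired analysis was possible because each animal ID occurs once and the groups share no replicate number. The ID range was no term in long against short term, where each ID block holds mice of 1 time. Of 56 marker relations, 17 to 26 passed over the alternatives. Depth limits Il1b, Il6 and Cxcl9, whose values near 1 rest on few reads.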
